A study of Mus musculus with 54 samples.

Results

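The regions described here are the parts of the mouse autosomes that replicated early in embryonic stem cells (ESCs) and late in both differentiated cell types of the series. The genome had been read in windows of 50 kb, and 230 of 43941 autosomal windows (0.523%) were selected on their measured timing. A window was a member where the mean of the ESC lines was above 1, the mean of the neural precursor cells (NPCs) below -1 and the mean of the embryonic fibroblasts (MEFs) below -1. Timing is given throughout as the log2 ratio of early to late S phase signal, averaged over both alleles, so a positive value means early replication. For comparison, 10600 windows were above 1 in all 3 cell types, 14017 were below -1 in all 3, and 663 were early in MEFs alone.

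Replication timing was measured by Repli-Seq, in which replicating DNA is labelled with BrdU, cells are sorted by flow cytometry into the early and the late part of S phase, and the labelled DNA of each part is sequenced. The series holds 54 libraries. An early and a late library of a culture make up 1 profile, 27 in all, and every profile has 1 column per parental genome because the cells are F1 hybrids of inbred mice. The rule used 9 profiles of 5 ESC lines grown without feeders in 2i medium, a serum-free medium with LIF and inhibitors of the kinases MEK and GSK3, 3 profiles of NPCs at day 11 of differentiation, and 8 profiles of MEFs from 4 embryos. It did not use 4 profiles of the lines F121-6 and F121-9 grown on inactivated MEF feeders, 1 profile of V6.5 ESCs or 2 profiles of an extraembryonic endoderm (XEN) line.

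The ESC lines F121, F121-6 and F121-9 (labelled female) and F123 (male) came from the cross labelled 129 / cas, and Cas129 (female) from cas / 129. NPCs were made from F121-9 and Cas129. The MEF embryos were all cas / 129, with embryos 1 and 2 labelled female and embryos 3 and 4 male. V6.5 is a male C57B6 / 129 line in 2i medium, and the XEN line is female C57B6 / cas. The XEN and V6.5 values come from 1 line each, and nothing states whether repeat profiles of a line came from separate cultures, so errors are between lines or embryos. The labels of the cells could not be checked against marker expression, since the files hold replication timing alone. The read depth is unknown.

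Chromosomes are copied in large domains, each with its own place in the S phase programme, and early replication generally goes with open chromatin and active genes, late replication with compact chromatin at the nuclear edge. When ESCs differentiate, many domains move from early to late or the reverse. The chromosome stretches that lose early replication on leaving the pluripotent state include loci of genes that mark this state.

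The promoters in the members had a lower median number of CG dinucleotides than those of all windows. These are dense in the promoters of widely used genes. Promoters here are the 250 bases before and 50 after the start of a protein-coding gene, from RefSeq on GRCm38.p6 (mm10). In member windows they held a median of 7 CG, against 15 in all autosomal windows. The median was 19 in windows early in all 3 cell types, 2 in windows late in all 3 and 7 in windows early in MEFs alone. The quartiles were 3 and 11.25 in member windows and 4 and 25 in all windows. Of the member promoters 33.7% had under 5 CG, against 25.7% of all. The following 6 are shown with each CG in capitals. They do not stand for the members as a whole, since all but Triml1 lie above the member median. Zfp42 and Tet2 are pluripotency genes in member windows. Triml1, Triml2, Zfp976 and Smarcad1 were added after their values were seen, as neighbours of Zfp42 or as genes of the largest regions. The number of CG was 11 for Zfp42, 2 for Triml1, 9 for Triml2, 57 for Tet2, 10 for Zfp976 and 19 for Smarcad1.
Zfp42 promoter, chr8:43306960-43307259, minus strand: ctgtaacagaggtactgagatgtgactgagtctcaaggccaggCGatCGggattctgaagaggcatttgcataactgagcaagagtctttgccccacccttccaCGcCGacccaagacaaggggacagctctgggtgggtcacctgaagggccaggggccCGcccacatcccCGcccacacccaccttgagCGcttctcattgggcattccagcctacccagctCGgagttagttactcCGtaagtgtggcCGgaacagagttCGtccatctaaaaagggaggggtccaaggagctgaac
Triml1 promoter, chr8:43141437-43141736, minus strand: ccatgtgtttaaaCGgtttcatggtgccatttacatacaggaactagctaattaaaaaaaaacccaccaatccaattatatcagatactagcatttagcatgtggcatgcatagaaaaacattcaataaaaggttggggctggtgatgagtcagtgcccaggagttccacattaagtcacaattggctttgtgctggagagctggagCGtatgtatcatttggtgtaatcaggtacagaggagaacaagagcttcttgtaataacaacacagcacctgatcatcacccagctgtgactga
Triml2 promoter, chr8:43180286-43180585, plus strand: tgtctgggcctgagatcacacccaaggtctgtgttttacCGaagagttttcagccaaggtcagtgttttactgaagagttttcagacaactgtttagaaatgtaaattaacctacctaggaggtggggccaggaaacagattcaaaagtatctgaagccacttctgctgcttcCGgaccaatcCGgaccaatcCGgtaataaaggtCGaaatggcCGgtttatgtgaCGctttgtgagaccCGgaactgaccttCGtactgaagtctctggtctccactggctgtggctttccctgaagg
Tet2 promoter, chr3:133544341-133544640, minus strand: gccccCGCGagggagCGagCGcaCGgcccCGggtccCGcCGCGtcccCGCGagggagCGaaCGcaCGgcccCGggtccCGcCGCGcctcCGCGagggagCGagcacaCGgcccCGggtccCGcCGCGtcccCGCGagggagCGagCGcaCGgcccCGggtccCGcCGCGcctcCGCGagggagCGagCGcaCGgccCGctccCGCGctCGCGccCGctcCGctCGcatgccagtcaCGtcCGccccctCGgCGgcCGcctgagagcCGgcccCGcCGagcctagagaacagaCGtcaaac
Zfp976 promoter, chr7:42642555-42642854, minus strand: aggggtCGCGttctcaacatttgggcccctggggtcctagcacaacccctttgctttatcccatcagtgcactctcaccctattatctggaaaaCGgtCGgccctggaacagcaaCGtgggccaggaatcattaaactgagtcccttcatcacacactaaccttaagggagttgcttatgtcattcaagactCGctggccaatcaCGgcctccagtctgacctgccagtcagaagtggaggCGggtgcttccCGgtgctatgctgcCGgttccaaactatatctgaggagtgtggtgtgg
Smarcad1 promoter, chr6:65042341-65042640, plus strand: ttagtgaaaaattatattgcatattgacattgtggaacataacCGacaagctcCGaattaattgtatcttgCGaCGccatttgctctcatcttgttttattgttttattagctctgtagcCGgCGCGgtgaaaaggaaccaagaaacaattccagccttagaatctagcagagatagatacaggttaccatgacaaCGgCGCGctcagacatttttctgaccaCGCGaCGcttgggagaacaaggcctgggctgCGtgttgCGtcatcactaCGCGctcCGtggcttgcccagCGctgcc

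The promoter of Tet2 is dense in CG throughout, while that of Triml1 has almost none. The octamer motif ATGCAAAT, or ATTTGCAT on the other strand, is the letter sequence recognised by POU-domain factors such as Oct4. It occurred in 4 of the 92 promoters placed in member windows (4.35%), against 1.72% of all placed promoters of the same length, and in 5.26% of those in windows early in MEFs alone. The Zfp42 promoter holds it as ATTTGCAT, beginning at base 65 of the printed sequence, counted from the 5′ end. A match is a description of the letters and no evidence of binding.

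The 230 windows were unevenly spread along the genome. When members separated by at most 2 other windows were joined, 68 regions resulted. They had a median length of 125 kb, the longest was 800 kb, and the member windows added up to 11.5 Mb. Of these regions, 33 had at least 3 member windows and held 185 of the members, and 25 were single windows. The 12 regions with the most windows held 105 members (45.7%). Chromosome 13 had 34 members, all of them between 61 and 68 Mb, and chromosome 7 had 33, of which 22 lay between 41 and 44 Mb. Both chromosomes together held 29.1% of the members and 10.8% of all autosomal windows. Adjacent windows are not independent, since neighbouring windows of a column correlated at 0.974 to 0.994.

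Genes of C2H2 zinc fingers were frequent among the members. Most proteins named Zfp in the mouse carry arrays of zinc fingers, and large clusters of them encode KRAB proteins that silence transposable elements. Of 111 protein-coding genes placed in member windows, 30 had a symbol starting with Zfp (27.0%), against 1.84% of 16462 genes placed in all autosomal windows, 1.69% in windows early in all 3 cell types and 0.545% in windows late in all 3. Olfactory and vomeronasal receptor genes also form large clusters. Of the 111, 5 were named Olfr, against 825 of all 16462, a similar share. Named Vmn2r were 4 of the 111, against 88 of all 16462, a higher share from a small count. The Zfp genes are neighbours in clusters, chiefly on chromosomes 7 and 13, so they are not independent observations. Member windows held 0.430 protein-coding gene starts per window, between the 0.783 of windows early in all 3 cell types and the 0.109 of windows late in all 3, and above the 0.345 of all windows (chromosome 18 left out).

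Timing at the members is described without a test, because these values chose them. The median over the 230 windows was 1.41 in F121, 2.26 in F121-6, 1.56 in F121-9, 1.50 in F123 and 1.61 in Cas129. It was -2.18 in F121-9 NPCs and -2.13 in Cas129 NPCs, and from -1.94 to -1.77 in the 4 MEF embryos. Every member was above 0 in F121, F121-6, F121-9 and F123, 2 were below 0 in Cas129, and all 230 were below 0 in both NPC lines and in all 4 embryos. At the members F121-6 stood above the other ESC lines and was the highest of the 5 in 27 of the 33 regions of at least 3 windows. The rule used these values, so a high F121-6 value helped a window to qualify. Over all autosomal windows its median (-0.62) lay within the range of the other hybrid lines in 2i (-0.78 to -0.60). This median does not describe single loci. Outside the members F121-6 was the lowest of the 5 at some, as at Pou5f1 (1.33 against 2.64 to 3.07). At others F121-6 was the highest, as at Stk31 (2.88 against 1.74 to 2.35). Its repeat profiles differed at the members by a median of 0.502, against 0.157 in F123 and 0.189 in F121-9. Cas129 had a like spread between repeats (0.447 in ESCs and 0.638 in NPCs). Without F121-6, 187 windows met the rule, all of them among the 230.

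**Figure D1:**
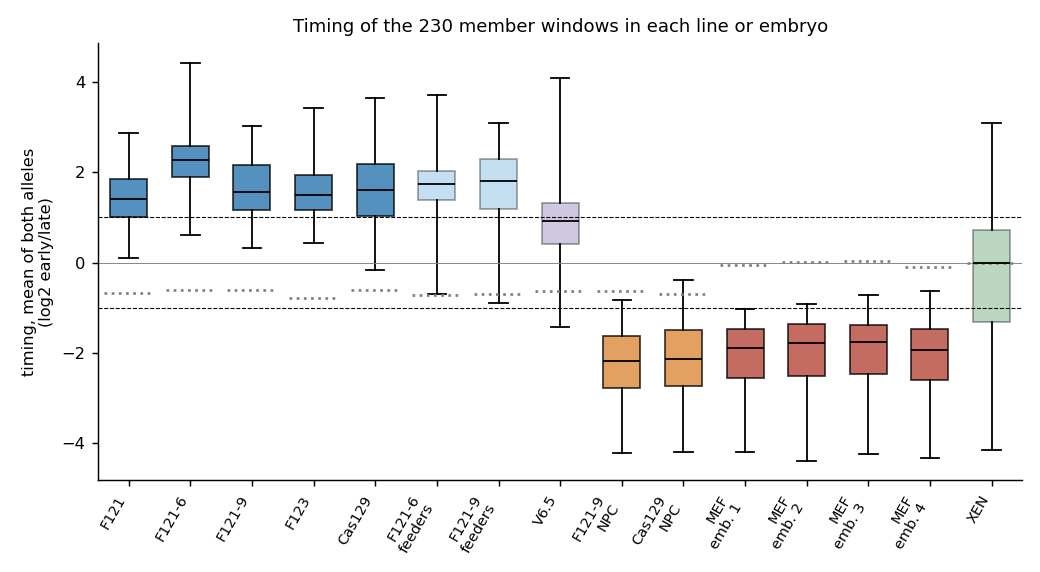
Timing of the 230 member windows (log2 early over late, vertical axis) in each ESC line, NPC line, MEF embryo and the XEN line. Boxes span the quartiles with the median as a line, whiskers reach the lowest and highest window, dotted grey lines mark the median of all autosomal windows, dashed lines the thresholds of 1 and -1, and pale boxes the cells that the rule did not use; V6.5 (median 0.92) and XEN (median -0.00) lie below the feeder cultures (1.73 and 1.81).

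The thresholds cut through a continuum. The member with the lowest ESC mean was chr9:3500001-3550000 (1.00 in ESCs, -2.18 in NPCs and -2.28 in MEFs), and the nearest window outside was chr8:43050001-43100000 (0.99, -4.05 and -4.04), at the edge of the Zfp42 region. The member nearest the NPC threshold had -1.02 and the nearest window outside had -0.99. At the MEF threshold these were -1.01 and -0.996. A further 190 windows failed only the NPC threshold and another 190 only the MEF threshold. Windows chosen on the replicate 1 profiles alone numbered 241, and 171 of them (71.0%) met the rule again in the replicate 2 profiles, which come from 4 ESC lines, 1 NPC line and 4 embryos. All 241 were above 0 in the ESCs and below 0 in the MEFs of replicate 2, and 227 were below 0 in the NPCs.

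The gene lists were chosen with earlier results of these data known. Of 30 listed pluripotency genes, 26 were placed, and 5 lay in member windows: Dppa2, Dppa4, Zfp42, Tet2 and Fbxo15. Among all placed protein-coding genes this was 111 of 16462. By the mean of the 5 lines all 26 had an ESC timing above 1. Single lines were lower at some, as at Nanog (0.29 in F121-6) and Tet2 (0.76 in Cas129). Of all autosomal windows, 31.6% to 33.8% were above 1 in the single hybrid lines in 2i. That is a share of windows, and early windows hold more gene starts. The share of all placed genes above 1 is not given here. Of the 26, 12 were early in all 3 cell types, against 9197 of all 16462. The 12 include Pou5f1 (2.47 in ESCs, 2.26 in NPCs and 3.23 in MEFs), which encodes Oct4. Of 16 placed germline genes, 1 was in a member window (Nlrp4f). None of the 15 neural, 13 fibroblast, 14 endoderm and 7 trophoblast genes placed lay in one; the rule itself selects against genes that are early in NPCs or MEFs.

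The pluripotency marker Zfp42, also called Rex1, lay with Triml1 and Triml2, genes of the tripartite motif family, in 8 member windows (chr8:43100001-43500000). Timing of the region was 1.59 in F121, 2.10 in F121-6, 1.77 in F121-9, 1.47 in F123 and 1.46 in Cas129. NPCs and MEFs were at the other extreme, with -3.74 in F121-9 NPCs and -3.77 in Cas129 NPCs, and -3.94, -4.11, -4.01 and -3.70 in MEF embryos 1 to 4. These NPC and MEF means were the lowest of the 12 largest regions. On feeders the region had 2.00 in F121-6 and 1.98 in F121-9, and V6.5 had 0.67, below the 5 hybrid lines.

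Dppa2 and Dppa4, which encode DNA-binding proteins of ESCs and the early embryo, lay beside Morc1, a silencer of transposons in male germ cells, and Trat1, a T cell adaptor, in 12 member windows without a gap (chr16:48200001-48800000). The region had 1.50 in F121, 2.02 in F121-6, 1.69 in F121-9, 1.60 in F123 and 1.58 in Cas129. In NPCs it had -2.99 (F121-9) and -3.32 (Cas129), and in MEFs it lay between -2.75 and -2.52. Both feeder cultures (1.73 and 2.27) and V6.5 (1.05) were early there as well.

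The other pluripotency genes had smaller contrasts. At Tet2, which encodes an enzyme that oxidises methylated cytosine, the window chr3:133500001-133550000 had a mean of 1.37 ± 0.56 (SD, n = 5 ESC lines), from 0.76 in Cas129 to 2.26 in F121-6, with -2.50 in NPCs and -1.52 ± 0.08 in MEFs (SD, n = 4 embryos). Fbxo15, an F-box gene long used as a reporter of the pluripotent state, had 2.08 ± 0.51 in ESCs, -1.19 in NPCs and -1.01 ± 0.08 in MEFs at chr18:84900001-84950000, which makes it the member closest to the MEF threshold. Nlrp4f, an NLR family gene of the oocyte, had 2.52 ± 0.41, -3.61 and -3.07 ± 0.18.

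The largest region held zinc finger genes on chromosome 7 (chr7:42400001-43200000), among them Zfp141, Zfp975, Zfp976 and Zfp977, with 15 member windows. Its timing was 1.91 in F121, 2.23 in F121-6, 2.11 in F121-9, 1.68 in F123 and 2.11 in Cas129, against -3.10 in F121-9 NPCs and -2.92 in Cas129 NPCs and -3.00, -3.07, -2.85 and -3.15 in MEF embryos 1 to 4. The ESC lines were close together there, whereas V6.5 had only 0.56. A second cluster on the same chromosome (chr7:41400001-41750000, with Zfp788 and the vomeronasal receptor gene Vmn2r57) ranged from 0.95 in F121 to 2.13 in F123 and had -3.61 in F121-9 NPCs and -3.74 in Cas129 NPCs. MEFs were as late, from -3.98 to -3.67.

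On chromosome 13, 3 of the 12 largest regions followed each other within the 61 to 68 Mb stretch. The first, with Zfp808, Zfp934 and Zfp935 (chr13:62100001-62550000, 9 windows), had ESC values from 1.96 in F123 to 2.74 in F121-9 and -2.37 and -2.14 in the NPC lines. The second, with Nlrp4f, Zfp369, the olfactory receptor gene Olfr466 and the transporter gene Mfsd14b (chr13:65000001-65350000, 7 windows), had 1.50 in F123 to 2.69 in Cas129 and -3.38 and -3.74 in the NPC lines. The third holds Zfp712 together with Uqcrb, a subunit of respiratory complex III, Mterf3, a mitochondrial transcription regulator, and Ptdss1, a phosphatidylserine synthase (chr13:66900001-67400000, 9 windows). With 2.80 in F121, 2.88 in F121-6, 2.44 in F121-9, 2.72 in F123 and 2.74 in Cas129 it had the highest ESC mean of the 12 (2.71 ± 0.17), and its NPC values of -2.01 and -2.18 and MEF values of -1.82 to -1.60 were less late than at Zfp42.

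The other large regions carried genes of mixed functions. Smarcad1, a chromatin remodeller, and Hpgds, a prostaglandin D synthase, shared 11 windows (chr6:64750001-65300000), with ESC lines from 1.60 to 2.15, NPCs at -2.22 and -2.26 and MEFs from -2.75 to -2.51. The region of Syt9, a synaptotagmin, with Olfml1, Ppfibp2 and Cyb5r2 (chr7:107350001-107800000, 9 windows) had 1.79 ± 0.32 in ESCs, -2.08 in NPCs and -1.82 ± 0.17 in MEFs. Crlf2, a cytokine receptor subunit (chr5:109550001-109850000, 6 windows), had 2.01 ± 0.39, -2.24 and -1.88 ± 0.24. In these 3 regions no ESC line overlapped any NPC line or embryo, which the rule favours because it used these values. The region of Trps1, a GATA-type zinc finger repressor (chr15:50750001-51050000, 6 windows), and that of Utp20, a factor of ribosome assembly, with Arl1, Spic and Mybpc1 (chr10:88550001-88850000, 6 windows), were less even among the ESC lines. F121-6 was far above the other lines at Trps1 (2.51 against 1.14 to 1.52). At Utp20 the ESC lines ran from 0.77 in Cas129 to 2.91 in F121-6.

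**Figure D2:**
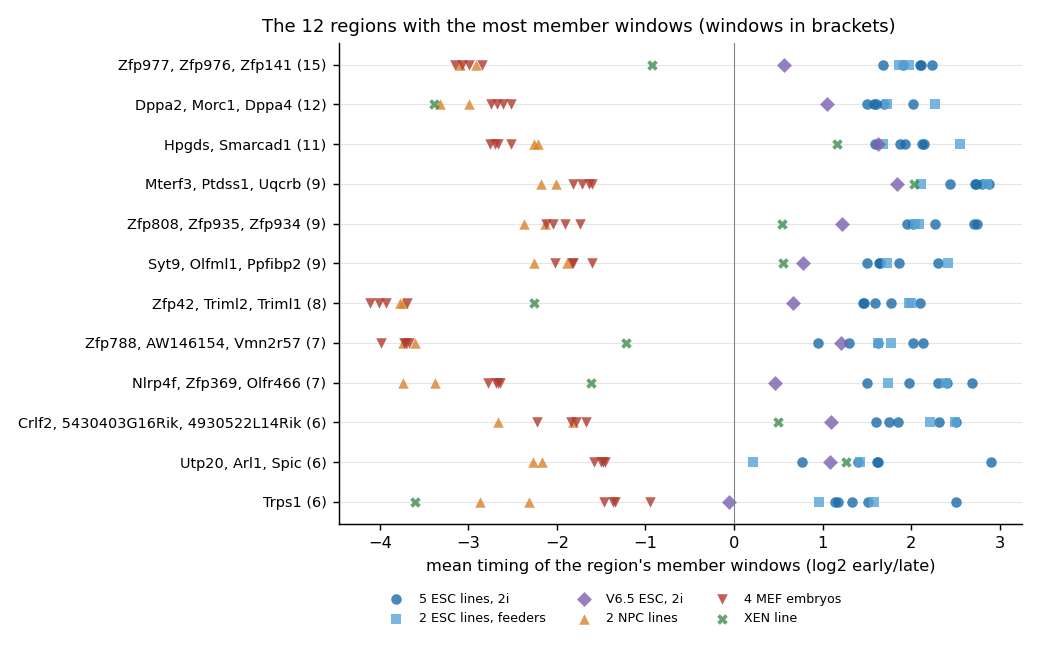
Mean timing (log2 early over late, horizontal axis) of the 12 regions with the most member windows, with 1 symbol per line or embryo. ESC lines lie to the right and NPC lines and MEF embryos to the left in every region, as the rule selects for. The XEN line lies with the late cells at Dppa2 (-3.39) and Trps1 (-3.60). Its mean over the region named for Mterf3 (2.03) lies near the ESCs, though XEN timing varies widely within that region.

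Around the regions, timing in ESCs declined gradually. At the edges of the 33 regions of at least 3 windows, the median ESC timing was 1.53 in the outermost member window, 0.85 at 75 kb outside, 0.18 at 175 kb, -0.11 at 275 kb and -1.36 at 1025 kb (54 to 66 edges had a window at each distance). The 2 lines on feeders, which the rule did not use, gave 1.50, 0.92, 0.24, -0.14 and -1.36. V6.5 ran lower near the edge, with 0.75 in the outermost member window and 0.15 at 75 kb, and reached -1.33 at 1025 kb. NPC timing was nearly level close to the edge, at -2.15 in the outermost window and -2.11 at 275 kb, and was -1.75 at 1025 kb. MEF timing moved from -1.97 to -1.76 at 275 kb and was -1.26 at 1025 kb, slightly above the ESC value there. In the 250 kb next to each side, 27 of the regions had windows on both sides: in 18 the ESC mean was above 0 on 1 side and below 0 on the other, in 6 above 0 on both and in 3 below 0 on both. NPC flanks were below 0 in 57 of 58 and MEF flanks in 55 of 58.

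**Figure D3:**
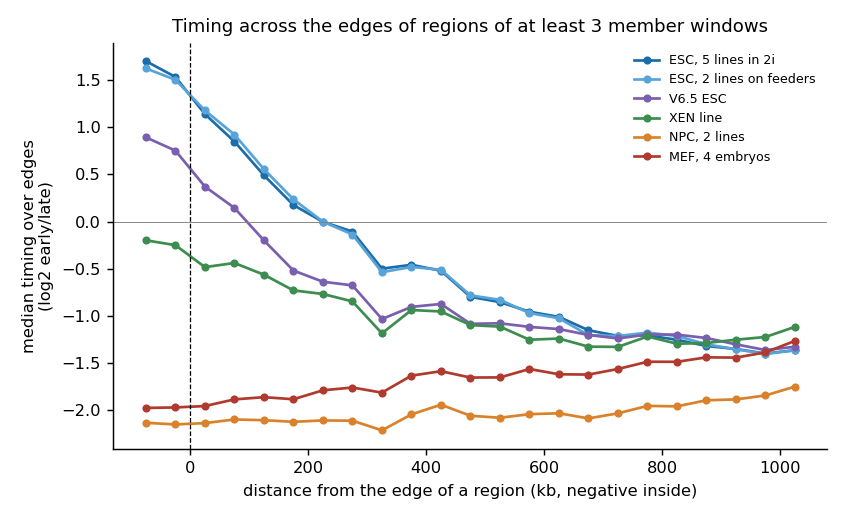
Median timing (log2 early over late, vertical axis) against distance from the edge of a region (kb, negative inside) over the edges of the 33 regions of at least 3 member windows. ESC lines in 2i and on feeders fall together from about 1.53 and 1.50 in the outermost window to -1.36 at 1025 kb, V6.5 starts lower at 0.75, and NPCs and MEFs stay below -1 at all distances drawn.

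ESCs outside the rule were compared with the XEN line, which models the extraembryonic endoderm and which the rule did not use either. At the members the XEN median was -0.00, close to that of all autosomal windows (-0.01). Of the 230 members, 115 (50%) were above 0, against 49.8% of all windows. Above 1 were 46 (20%), against 38.0%, and below -1 were 72 (31.3%), against 38.8%. The XEN quartiles were -1.32 and 0.71 at the members and -2.50 and 2.16 over all windows, so the members spread less. By contrast, XEN cells had a median of 2.67 in windows early in ESCs, NPCs and MEFs alike and -2.84 in windows late in all 3. The median was 1.73 in F121-6 on feeders, 1.81 in F121-9 on feeders and 0.92 in V6.5, in which 104 members (45.2%) were above 1 and 204 (88.7%) above 0. In the hybrid lines on feeders 201 and 189 members were above 1. V6.5 was below all 5 hybrid lines in 2i in 19 of the 33 regions of at least 3 windows; it has 1 profile and another cross, and the members were selected on high values in the hybrid lines, so this difference was not tested. Its median over all autosomal windows (-0.63) lay within the range of the hybrid lines in 2i (-0.78 to -0.60).

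With limma over all autosomal windows, calling a difference of at least 1 at a Benjamini-Hochberg adjusted p below 0.05, 94 of the 230 members (40.9%) differed between these 3 ESC means and XEN, against 17% of all windows and 42.8% of windows early in MEFs alone. In 91 members (39.6%) the ESCs were earlier, against 3.93% of all windows, and in 3 (1.30%) XEN was earlier, against 13.1%. In windows early in MEFs alone the directions were the reverse, with 0.452% earlier in ESCs and 42.4% earlier in XEN. The rule selects windows that are early in ESCs, and the background includes windows of every ESC timing, so the excess of ESC-earlier calls is partly set by the choice. Windows early in MEFs alone were chosen as late in ESCs, so their reversed directions are partly set by the choice as well. Over the members the median difference was 1.59, and over all windows it was -0.39. Columns of ESCs and NPCs had a median autosomal mean of -0.60 and those of MEFs and XEN one of -0.14, and after each column was centred on its autosomal median, 131 members were called, 130 earlier in ESCs and 1 earlier in XEN, while the share of all windows earlier in ESCs went up as well, to 8.59%. The calls rest on F121-6: without its feeder profiles, which leaves 2 ESC means, limma called 0 members and 0% of all windows, with 107 members and 10946 of all windows at an unadjusted p below 0.05. Of the 107, 103 were earlier in ESCs, and the median difference over the members was 1.48. Without F121-9 it called 61 members and 11.0% of all windows, and with the feeder cultures alone 159 members and 28.7%. XEN is 1 line and is assumed to vary as the ESC means do.

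Among the regions, the XEN line was latest at Prex2, an exchange factor of the GTPase Rac (chr1:11300001-11450000, 3 windows), with -4.20 and -3.72 in its 2 profiles, against 1.41 in F121-6 and 1.40 in F121-9 on feeders and 1.33 in V6.5. All 3 windows were called (limma adjusted p 0.0007 to 0.000756). At Trps1 XEN had -3.14 and -4.05, and the 3 ESC means were 1.58, 0.96 and -0.06, with all 6 windows called (limma adjusted p 0.00133 to 0.00562). The Dppa2 and Dppa4 region was late in XEN (-3.62 and -3.15) and was earlier in ESCs by a mean of 5.07 in all 12 windows (limma adjusted p 0.000879 to 0.00216). Zfp42 and its neighbours had -2.32 and -2.20 in XEN, a difference of 3.81 with all 8 windows called (limma adjusted p 0.00267 to 0.00514). So the pluripotency loci on chromosomes 8 and 16 were late in XEN as in NPCs and MEFs. Tet2 was called too, with a difference of 1.90 ± 0.54 (SE, limma adjusted p = 0.032), whereas Fbxo15 was early in XEN (2.06) and its difference of -0.38 ± 0.55 was not called (limma adjusted p = 0.702).

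At the other end were regions in which XEN cells were as early as ESCs, or earlier. The region of Dpp6, an auxiliary subunit of potassium channels, and Paxip1, a protein of the DNA damage response (chr5:27650001-27800000, 3 windows), had 2.92 and 2.74 in XEN, against 0.58, 0.07 and 0.59 in the 3 ESC means. These are the 3 member windows called earlier in XEN (difference -2.42, limma adjusted p 0.0113 to 0.0136). Zfp273 and its neighbours Zfp493 and Zfp85 (chr13:67750001-67950000) had 2.63 in XEN and 2.24 in ESCs, and the Mterf3 region on the same chromosome had means of 2.03 and 2.27. Within the Mterf3 region XEN was uneven. It had 0.49 in the window of Mterf3, Uqcrb and Ptdss1 (chr13:66900001-66950000) and 2.95 in the last window (chr13:67350001-67400000). The 2i ESC means there were 2.82 and 2.59. Rgs20, a regulator of G protein signalling, with Atp6v1h, a subunit of the proton pump (chr1:4900001-5150000), had 2.35 and 1.98, and the region at chr1:4550001-4700000, with no protein-coding gene, had 2.42 and 1.72. None of these 4 regions had a called window (limma adjusted p 0.0516 to 0.995). Over the 33 regions of at least 3 windows, XEN was above 1 in 8 and below -1 in 10.

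**Figure D4:**
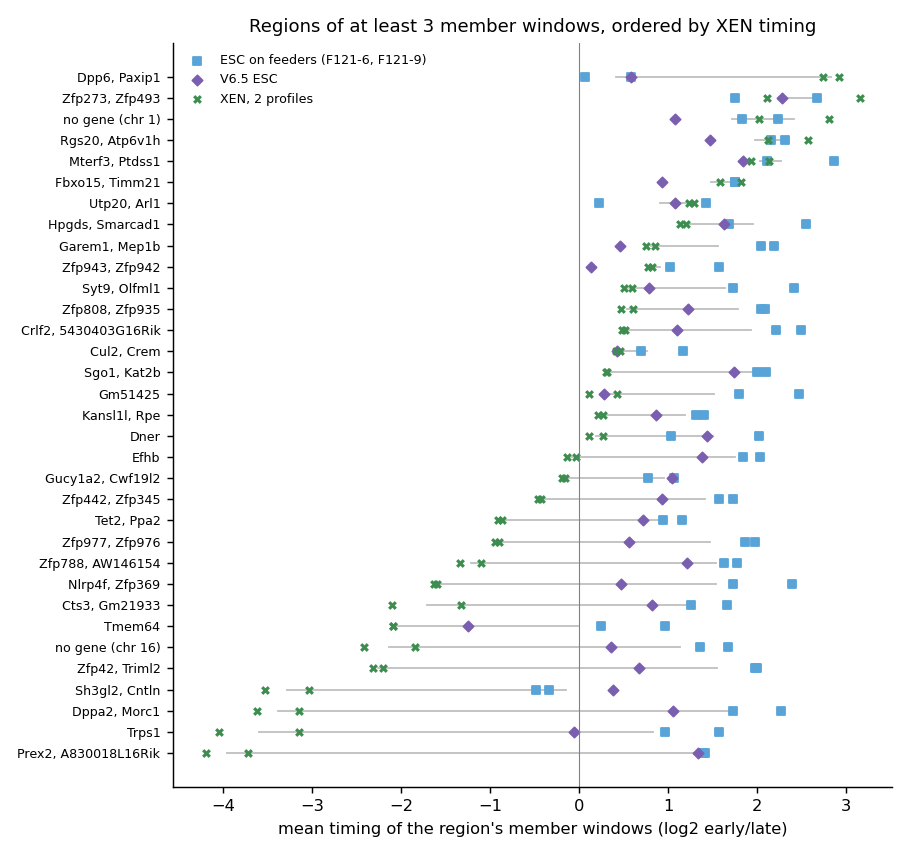
Mean timing (log2 early over late, horizontal axis) of the 33 regions of at least 3 member windows in the 2 XEN profiles, in the ESC lines F121-6 and F121-9 on feeders and in V6.5 ESCs, ordered by the XEN mean; grey lines join the XEN mean to the mean of the 3 ESC values. XEN runs from -3.96 at Prex2 to 2.83 at Dpp6, while the feeder cultures are above 0 in 32 of the 33 regions.

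The effect of the culture condition was read from the 8 profiles of F121-6 and F121-9, in 2i and on feeders. Since their 2i profiles were among those that chose the members, the test rests on windows chosen on F121, F123 and Cas129 alone, together with NPCs and MEFs. There were 186 such windows, of which 183 are members. With limma on the 8 profiles (line as a covariate, a difference of at least 0.5), 26 of the 186 (14.0%) were called, close to the 12.8% of all windows. The profiles come from F121-6 and F121-9 only, so the feeder p values largely measure the spread of repeat profiles, not of lines. On feeders 18 were later (9.68%), against 7.86% of all windows, and 8 earlier (4.30%), against 4.92%. After each column was centred on its autosomal median, these were 15 and 12, against 6.24% and 6.98% of all windows. For the 230 members themselves the values are a description: 39 (16.96%) passed the same thresholds, 33 of them later (14.3%) and 6 earlier (2.61%), and the median of feeders minus 2i was -0.19, against 0.02 over all windows.

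The lines were set side by side. In F121-6 the median over the 186 windows went from 2.28 in 2i to 1.82 on feeders, and in F121-9 from 1.81 to 1.96. With limma fitted on F121-6 alone, 12 of the 186 were called, each of them later on feeders, against 2.69% of all windows later and 1.51% earlier. F121-9 alone had 14 later, against 7.06% of all windows, and 27 earlier, against 5.56%. The median difference was -0.41 in F121-6 and 0.24 in F121-9, and over all windows it was 0.01 and -0.02. A test of the difference between the lines in the effect of feeders, added after these values were seen, called 0 members and 0% of all windows (limma, line by medium term), with 70 members and 6570 of 43941 windows at an unadjusted p below 0.05. The repeat profiles of F121-6 on feeders differed by a median of 0.555 at the members, against 0.214 for F121-9 on feeders, and the part of this spread in the result was not tested.

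Some regions had the same direction in both lines. Cntln, a centrosomal protein, and Sh3gl2, an endophilin (chr4:85100001-85350000, 5 windows), had repeat values of 2.42 and 2.41 for F121-6 in 2i against -0.46 and -0.22 on feeders. F121-9 had 1.34 and 1.50 in 2i against -0.42 and -0.54 on feeders. No value on feeders reached any value in 2i, and the mean difference was -2.33. Of its windows, 4 also qualified on the 3 other lines, and all 4 were called later on feeders (limma adjusted p 0.000361 to 0.000615). The region was the only 1 of the 33 in which the feeder cultures were not both above 0. Cas129 was also low there in 2i (0.17), so early replication at Sh3gl2 was not shared by all ESC cultures.

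The Utp20 region had 2.91 in 2i and 1.43 on feeders in F121-6, and 1.62 and 0.22 in F121-9. The 5 of its windows that qualified on the 3 other lines were all called later on feeders (limma adjusted p 0.000897 to 0.00212). Tmem64, a transmembrane protein gene (chr4:15150001-15350000, 4 windows), had 2.89 in 2i and 0.96 on feeders in F121-6, and 1.20 and 0.25 in F121-9. None of its windows qualified on the other lines, so this difference is not tested. Both regions were also uneven among the 2i lines, with Cas129 lowest (0.77 and 0.09), and V6.5 was late at Tmem64 (-1.25).

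Differences towards earlier replication on feeders were smaller. Among the regions of at least 3 windows the largest means were 0.49 in the region with no gene on chromosome 1, with 1 of 3 windows called, 0.44 at Rgs20, with 2 of 4 called, and 0.25 at Garem1, an adaptor of growth factor signalling (chr18:21100001-21350000), with 0 of 5 called (limma adjusted p 0.109 to 0.972). In regions of fewer windows, the single window at Il23r, a cytokine receptor gene (chr6:67450001-67500000), had 1.15 (limma adjusted p = 0.00821), and both windows at Klrg1, a receptor gene of lymphocytes (chr6:122200001-122300000), were called with a mean of 0.72 (limma adjusted p 0.0201 and 0.0414). These 2 were named after their values were seen. All windows of these 5 regions also qualified on the 3 other lines. At Zfp42 the difference was 0.06 and at Dppa2 0.14, with no window called in either.

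The difference between the alleles is a measure that the rule did not use, since members were chosen on the mean of both. It is given as 129 minus Cas, so a positive value means that the 129 allele replicated earlier. In ESCs, 56 members (24.3%) were called (limma, a difference of at least 0.5), close to the 26.4% of all windows. The 129 allele was earlier in 36 (15.7%, against 13.8%) and the Cas allele in 20 (8.70%, against 12.6%). The share was 11.6% in windows early in all 3 cell types and 26.0% in windows late in all 3. In NPCs 20 members (8.70%) were called against 4.03% of all windows, and in MEFs 30 (13.04%) against 12.6%. Of the MEF calls, 11 had an earlier 129 allele (4.78%, against 5.36%) and 19 an earlier Cas allele (8.26%, against 7.21%); after quantile normalization these were 15 and 14. The NPC count rests on 2 lines and fell to 4 without F121-9 NPCs (1.74%, against 1.15% of all windows) and to 7 without Cas129 NPCs (3.04%, against 1.11%). It also fell to 9 to 12 when any 1 embryo was left out, with at least 2.81% of all windows called, and to 11 without F121-9 ESCs, with 3.29%.

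Between cell types, the allelic difference changed at 78 members (33.9%) from ESCs to MEFs, against 27.5% of all windows. It was lower in MEFs, that is moved towards an earlier Cas allele, in 51 (22.2%, against 15.2%) and higher in 27 (11.7%, against 12.4%). All MEF embryos are from 1 cross direction and 4 of the 5 ESC lines from the other, so cell type and cross direction cannot be fully told apart here. With the lines and embryos labelled female alone, 38 members (16.5%) were called, against 15.5% of all windows.

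Among the regions of at least 3 windows, the largest ESC differences favoured the 129 allele at Prex2, with 2.07 in F121, 1.38 in F121-6, 0.99 in F121-9, 1.89 in F123 and 2.32 in Cas129 (mean 1.73 ± 0.54, SD, n = 5). All 5 lines had an earlier 129 allele, and all 3 windows were called (limma adjusted p 1.96e-06 to 3.54e-06). MEF embryos had -0.05 to 0.53, which did not overlap the ESC lines, and the difference between MEFs and ESCs of -1.52 was called in all 3 windows (limma adjusted p 0.000273 to 0.000804). Split by allele, the ESC mean was 2.04 for 129 and 0.31 for Cas, so the mean of 1.17 that made Prex2 a member combined an early and a nearly balanced allele.

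Dpp6 and Paxip1 had 1.02 in F121, 1.24 in F121-6, 1.03 in F121-9, 0.91 in F123 and 1.44 in Cas129, a mean of 1.13 ± 0.21 (SD, n = 5; limma adjusted p 2.69e-06 to 3.47e-05). MEF embryos had 0.24, 0.52, 0.75 and 0.36, in the same direction and smaller. In the Zfp42 region the difference was 0.61 in F121, 0.40 in F121-6, 0.72 in F121-9, 0.57 in F123 and 0.99 in Cas129. In ESCs 6 of its 8 windows were called (limma adjusted p 4.13e-05 to 0.0096 over all 8). The windows that overlap Zfp42 itself (chr8:43250001-43300000 and chr8:43300001-43350000) were not called. Their differences of 0.49 and 0.49 were below the size needed. Over the region the NPC lines had 0.29 and 0.03 and the embryos -0.09 to 0.18, with no window called. Both alleles were early in ESCs at Zfp42 (2.01 for 129 and 1.35 for Cas) and late in MEFs (-3.92 and -3.96).

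Tmem64 and the zinc finger genes Zfp442 and Zfp345 (chr2:150300001-150550000, 5 windows) completed the 5 regions of at least 3 windows with the largest difference towards 129. Of the smaller regions, the single window at Scn3a, a sodium channel gene (chr2:65550001-65600000), named after its values were seen, had 1.19 ± 0.47 (SD, n = 5; limma adjusted p = 2.99e-05). Tmem64 had 0.87 to 1.09 in 4 lines and -0.55 in F123, and 3 of 4 windows were called. Zfp442 had 0.11 in F123 to 1.27 in F121-6, with 4 of 5 windows called, and the mean fell from 0.64 to 0.48 without F121-6, below the size that calls need.

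Among the regions of at least 3 windows, the Cas allele was earlier in ESCs by the largest mean at Cul2, the scaffold of a ubiquitin ligase, with the cAMP-responsive factor gene Crem (chr18:3300001-3500000, 4 windows). The values were -0.91 in F121, -0.36 in F121-6, -1.07 in F121-9, -1.42 in F123 and -1.32 in Cas129, and all 4 windows were called (limma adjusted p 9.08e-06 to 0.00107). NPCs had the same direction there (-0.82 and -1.07, 3 windows called). Gm51425 (chr17:16850001-17050000, 4 windows) had -0.97 ± 0.48 with 3 windows called. The single window at Zfp951, a zinc finger gene (chr5:104800001-104850000), named after its values were seen, had -1.09 ± 0.36 (limma adjusted p = 0.00015). Crlf2 (-0.31 ± 0.24) and Utp20 (-0.26 ± 0.18) were far smaller, with 1 and 0 windows called.

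Cts3, a cathepsin of the placenta (chr13:61550001-61900000, 5 member windows), had opposite allelic differences in ESCs and MEFs. The ESC lines had -0.73 in F121, -0.64 in F121-6, -1.40 in F121-9, -0.36 in F123 and -1.58 in Cas129, all with an earlier Cas allele and all 5 windows called (limma adjusted p 0.000898 to 0.0239). The embryos had 0.50, 1.19, 0.88 and 1.50, all with an earlier 129 allele, and the NPC lines 1.35 and 1.22. MEFs minus ESCs was 1.96, called in all 5 windows (limma adjusted p 0.000306 to 0.00187). The mean of both alleles hid this: Cts3 was early in ESCs (0.91 for 129 and 1.85 for Cas) and late in MEFs (-2.18 and -3.19). Dppa2 and Dppa4 had no called allelic difference in ESCs (mean -0.07 ± 0.17, limma adjusted p 0.146 to 0.816).

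**Figure D5:**
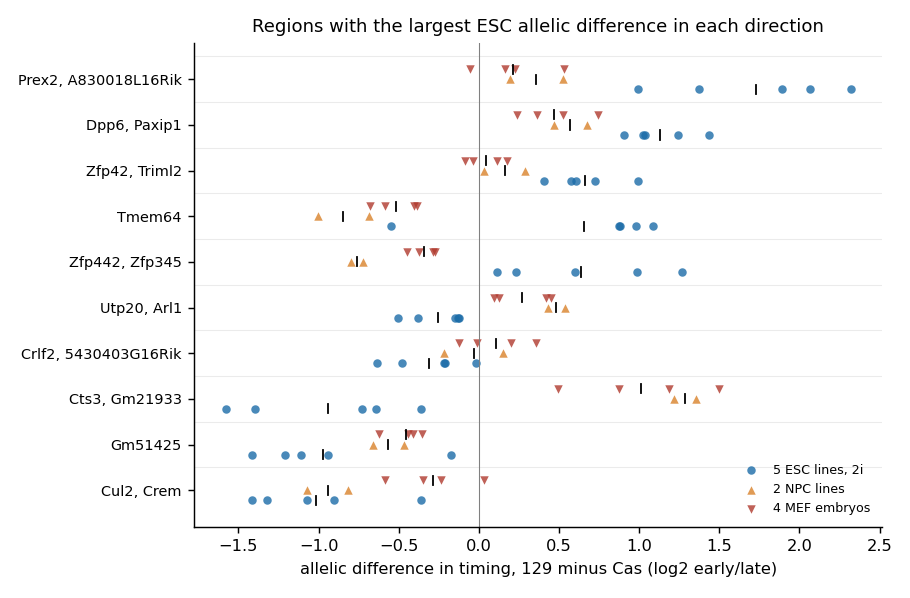
Allelic difference in timing (129 minus Cas, log2, horizontal axis) in the regions of at least 3 member windows with the largest mean ESC difference in each direction, with a symbol for every ESC line (circles), NPC line (triangles up) and MEF embryo (triangles down) and a bar at each mean. At Prex2 all 5 ESC lines lie above every embryo, and at Cts3 the ESC lines are all below 0 and the embryos all above 0.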

How the data were processed

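Repli-Seq values of 27 profiles in 43941 autosomal windows of 50 kb were used as deposited. Per the file headers the authors gave 1 value per allele and window; the deposited values are read here as log2 ratios of early to late signal made by the authors, a base that no source states. The submitters' processing notes name mm10, Bowtie2, SAMtools and bedtools, with no versions; how reads were given to alleles, scaled or smoothed is not given in the sources used here. By autosomal column means the 17 ESC and NPC profiles (median -0.60) and the 10 MEF and XEN profiles (median -0.14) form 2 sets, so timing differences across them depend on scaling. No read counts were used here, so depth sets no interval.

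Profiles were averaged per line or embryo, except in the feeder fits, which took each profile as a unit. The member windows and the gene lists were chosen with earlier results of these data known. Tests used limma 3.58.1 in R 4.3.3, two-sided, over all autosomal windows with Benjamini-Hochberg adjustment; calls needed an adjusted p below 0.05 and a size of 0.5 (alleles, feeders) or 1 (XEN). The allelic fit held 5 ESC lines, 2 NPC lines and 4 embryos. The feeder test was read on windows chosen without the 2 lines it compares. The ESC allelic, feeder and XEN fits were also run on simulated data. There the windows were independent, and the spread for the XEN fit came from repeat profiles, not from lines. These runs therefore do not measure the error of the real tests. Named are the 12 regions with the most member windows, the 5 of at least 3 windows highest and lowest in XEN, the 5 largest ESC allelic differences each way, the 3 largest and smallest feeder differences and list genes in member windows, with up to 4 protein-coding genes each; genes were placed by their RefSeq start or, with no promoter in the table, by both ends. Alternatives were other scalings, thresholds, line and allele choices, a replicate block and leaving out each line, embryo or replicate. GC and repeat content were not analysed here.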

Additional observations from a re-analysis of the deposited data

Results flagged for a closer look

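Of 96 groups of values at the named regions, 3 had a line or embryo far from the others, fewer than the 1 in 20 that chance gives. F121-6 had a timing of 2.51 at Trps1 (chr15:50750001-51050000), above the other 4 ESC lines (1.14 to 1.52). F123 had an allelic difference of -0.551 at Tmem64 (chr4:15150001-15350000), against 0.87 to 1.09 in the other lines. Embryo 4 had a timing of -1.81 in the region with no gene on chromosome 1 (chr1:4550001-4700000), against -1.95 to -1.94 in the other embryos, a small gap in absolute terms.

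The allelic difference itself differed between MEFs and ESCs, by the limma test of that difference, at Cts3 (1.96, with the sign turned in every line and embryo), at Dpp6 (-0.662, with the 129 allele earlier in both cell types) and at Prex2 (-1.52). Timing at Garem1 moved by -0.166 on feeders in F121-6 and by 0.66 in F121-9, each line's profiles in opposite directions; no window of the region was called for the difference between the lines.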

How the results depend on the processing

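With a minimum size of 1 the calls among members were 13 (ESC alleles), 8 (NPC alleles), 7 (MEF alleles) and 27 (MEF minus ESC alleles), and with no minimum 89 (ESC) and 46 (MEF); lines labelled female alone gave 7 (NPC), 13 (MEF) and 38 (MEF minus ESC), and leaving out embryos 1 and 3 gave 3, 12 and 37. Leaving out 1 line or embryo at a time gave 54 to 60 (ESC alleles, main 56), 4 to 29 (NPC, main 20), 22 to 31 (MEF, main 30), 64 to 79 (MEF minus ESC, main 78), 29 to 40 (feeders, main 39) and 0 to 159 (XEN, main 94; 0 without F121-6, 159 without V6.5). F121-6 alone gave 24 feeder calls; profiles in place of line means gave 162 XEN calls and feeder profiles alone 159. The rule took in 611 windows at 0.5 and -0.5 and 95 at 1.5 and -1.5, and 187 to 244 with 1 line or embryo left out; after median centring it took in 289 (162 shared with the 230). Directions turned at Garem1 in F121-6 alone (feeders, -0.166), and against XEN at Mterf3 without F121-9 (-0.0555; up to 0.458 with other samples left out), at Zfp273 after median centring (0.261) and without XEN replicate 1 (0.120, down to -0.919 with others left out), and at Rgs20 after median centring (0.290) and quantile normalization (0.0597); none of these was called. The cause was not tested. Later feeder calls were 33 of 39, and 28 of 38 after median centring. Replicate numbers did not pair profiles (66 pairs of groups, timing correlations -0.40 to 0.30); with the replicate block the calls were 58 (ESC alleles), 23 (NPC), 33 (MEF), 82 (MEF minus ESC) and 35 (feeders). Among single regions 12 values lost and 3 gained a call, and 307 kept direction and side. The unknown read depth, 2 NPC lines, 1 XEN line and 1 V6.5 profile limit what can be said.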

Other observations

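Among the regions of at least 3 member windows not described so far, Sgo1, the guardian of sister chromatid cohesion, and Kat2b, a histone acetyltransferase (chr17:53600001-53800000), had a timing of 2.03 ± 0.28 in ESCs (SD, n = 5 lines), -1.68 in NPCs and -1.41 in MEFs. V6.5 had 1.75 and XEN 0.31 there. Dner, a neuronal Notch ligand (chr1:84500001-84650000), had 1.45 ± 0.29, -1.47 and -1.02. The region at chr16:9300001-9450000 has no protein-coding gene and had 1.60 ± 0.31 in ESCs, -1.24 in NPCs and -2.13 in XEN.

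Read on 1 parental genome at a time, the rule took in 241 windows on the 129 alleles and 217 on the Cas alleles. Of the 230 members, 194 (84.3%) were among the former and 174 (75.7%) among the latter. These regions and counts were chosen after their values were seen.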
